A study of Manis javanica with 3 samples.

Results

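The genes described here are transcription factors of the FOXA, GATA, SOX and ETS families, given by 10 symbols: FOXA1, FOXA2, FOXA3, GATA4, GATA6, SOX2, SOX9, SOX10, EHF and SPDEF. They were found by the gene symbol in the Swiss-Prot entry of each gene, and related genes that carried the same symbol there were told apart by the product name of their best hit in NR, the non-redundant protein database. This gave 11 of the 24220 genes in the expression tables, because SOX9 was annotated at 2 places, and whether these are copies or pieces of 1 gene was not tested. FOXA1 and FOXA2 carried the symbol FOXA3 in Swiss-Prot and were identified by their NR names. SPDEF carried the symbol ELF5 there and was identified by its NR and KEGG names. A further 10 genes with a listed symbol in Swiss-Prot bore other names in NR and were left out, ELF3 and SOX15 among them.

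RNA was sequenced from liver, salivary glands and small intestine (tissue label intestine) of 1 adult female Malayan pangolin, a wild animal that died while being rescued, and the labels name no treatment. Each tissue gave 1 library, labelled as total RNA and, by the methods of the study, made from RNA selected on poly-T beads, with 10158924 counts in the library labelled small intestine, 8318686 in that of the salivary glands and 14568778 in that of the liver, so no difference below has a replicate check. Levels are given as the deposited FPKM, for which the study's formula scales fragments by transcript length and by mapped fragments. The deposited counts and lengths do not return this FPKM, since count per kb divided by FPKM was not 1 value per library. Over the factors with at least 50 counts it ran from 5.43 (GATA6) to 10.1 (SPDEF) in the library labelled small intestine, from 9.24 (SOX9, gene5522) to 13.3 (SPDEF) in the salivary glands and from 8.06 (GATA6) to 20.01 (FOXA3) in the liver. Ratios between factors within a library are therefore given by FPKM and by count per kb of the deposited length, and the intervals do not cover the gap between both scales. Folds between libraries are ratios of counts scaled by TMM factors, with exact 95% intervals from the conditional binomial, and intervals of single levels are exact Poisson intervals. All intervals cover counting error only. Where a count was 0, the fold was computed against 3 counts in that library and is a lower bound.

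FOXA proteins are forkhead factors that can bind their sites in closed chromatin, and with GATA4 and GATA6, zinc finger factors, they act early in the formation of liver and gut from endoderm. SOX2 is kept on in the stomach and foregut lining, SOX9 in duct and progenitor cells, and SOX10 in glia and other neural crest derivatives and in cells of the salivary gland. EHF and SPDEF are ETS factors of epithelium, SPDEF being known for the maturation of mucus-secreting cells.

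The tissue labels were checked against lists of cell type markers. In the liver library 7 of 7 hepatocyte markers had an FPKM above 1, summing to 6616 and led by the tyrosine aminotransferase gene TAT with 4316. In the salivary gland library 5 of the 5 acinar and duct markers found had an FPKM above 1, summing to 226 and led by BHLHA15 with 95.9. AMY1 and MUC7 of that list were not found by name. Of the same 5, 4 passed that level in the library labelled small intestine and 3 in the liver, summing to 31.0 and 92.3. In the liver BHLHA15 had 64.8, and KLK1 had 2.83 against 2.27 in the salivary glands, so this list is a weak check of the label. The library labelled small intestine went against its label. There, 1 of the 8 enterocyte markers found had an FPKM above 1 (VIL1, 24.0), and FABP2, LCT and CDX1 were at a count of 0. Its markers of gastric chief and parietal cells summed to an FPKM of 148399, led by the pepsin gene PGA with 94138, and 6 of 6 markers of gastric pit and neck cells had an FPKM above 1. It is called the library labelled small intestine throughout.

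Of the 11 genes, 11 had an FPKM above 1 in the library labelled small intestine, 7 in that of the salivary glands and 7 in that of the liver, where 59.4%, 56.3% and 57.0% of all genes passed that level. FOXA1, GATA6 and both SOX9 genes passed it in all 3 libraries, GATA6 in the salivary glands with an FPKM whose interval reached below 1 (1.21, 0.814 to 1.72) and with 0.862 by count per kb scaled to the library total. The interval of SOX9 (gene5522) in the liver also reached below 1 (1.32, 0.966 to 1.77). The median FPKM of the 11 genes was 7.82, 7.62 and 1.68, in the same order, against 2.16, 1.76 and 1.89 over all genes. The highest FPKM stood in the salivary gland library for 6 genes (FOXA1, both SOX9 genes, SOX10, EHF and SPDEF), in the library labelled small intestine for 3 (GATA4, GATA6 and SOX2) and in the liver for 2 (FOXA2 and FOXA3). The highest of the 3 libraries held a median of 78.0% of a gene's summed FPKM, against 50.8% over 18037 genes with at least 10 counts in 1 library.

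**Figure D1:**
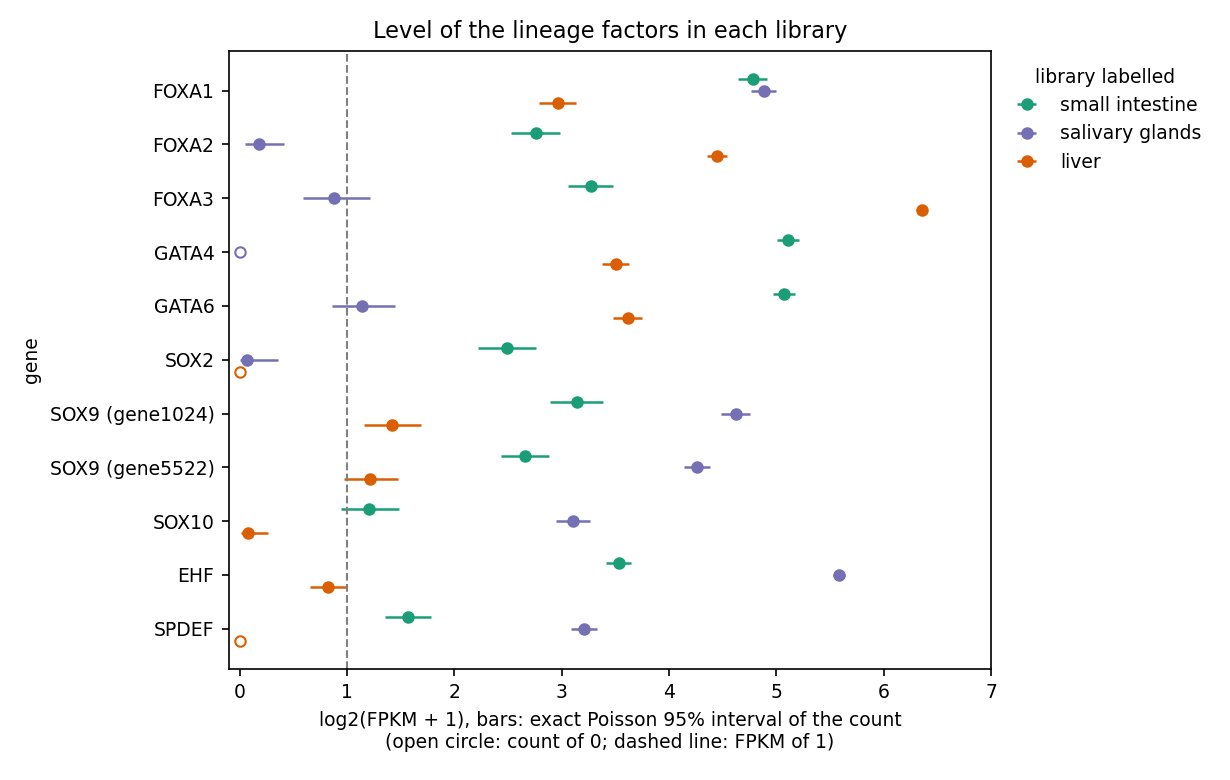
Level of each of the 11 genes as log2(FPKM + 1) in the 3 libraries, with exact Poisson 95% intervals of the count and open circles for a count of 0. FOXA2 and FOXA3 stand highest in the liver, GATA4, GATA6 and SOX2 in the library labelled small intestine, and SOX9, SOX10, EHF and SPDEF in the salivary glands, while FOXA1 lies lowest in the liver and at 26.4 and 28.5 in the other libraries.

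A gene was counted as past the fold when its TMM-scaled counts differed at least 2-fold between 2 libraries, among genes with at least 10 counts in 1 of them. Between the library labelled small intestine and the liver, 9 of the 11 genes were at least 2-fold higher in the former, as were 24.2% of the 17399 genes compared. The other 2, FOXA2 and FOXA3, were at least 2-fold higher in the liver, as were 24.0% of all genes compared. Between salivary glands and liver 10 of the 11 genes passed the count minimum, SOX2 having 1 count and 0 counts there. Of the 10, 6 were higher in the salivary glands (22.9% of 17162 genes) and 4, namely FOXA2, FOXA3, GATA4 and GATA6, in the liver (24.9%). Between the library labelled small intestine and the salivary glands, 5 of the 11 genes (FOXA2, FOXA3, GATA4, GATA6 and SOX2) were higher in the former (20.6% of 16519 genes) and 5 (both SOX9 genes, SOX10, EHF and SPDEF) in the latter (16.9%). FOXA1 was the gene not past the fold in that comparison. With scaling by library size only, the genes past the fold there numbered 2605 and 4700 in place of 3406 and 2797, so that more were higher in the salivary glands, and the same 10 factors were past the fold in the same directions. The median size of the log2 fold over the 11 genes was 2.16 between the library labelled small intestine and the liver and 2.59 between it and the salivary glands, against 0.95 and 0.69 over all genes compared. It was at least 6.41 for the 10 genes between salivary glands and liver, against 0.94, a lower bound because the count of GATA4 in the salivary glands was 0. With the counts of both SOX9 genes added into 1, the numbers higher and lower were 8 and 2 of 10 for the library labelled small intestine over the liver, 5 and 4 of 9 for salivary glands over liver, and 5 and 4 of 10 for the library labelled small intestine over the salivary glands. The 3 comparisons share libraries, and the genes were chosen with earlier results of these data known.

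**Figure D2:**
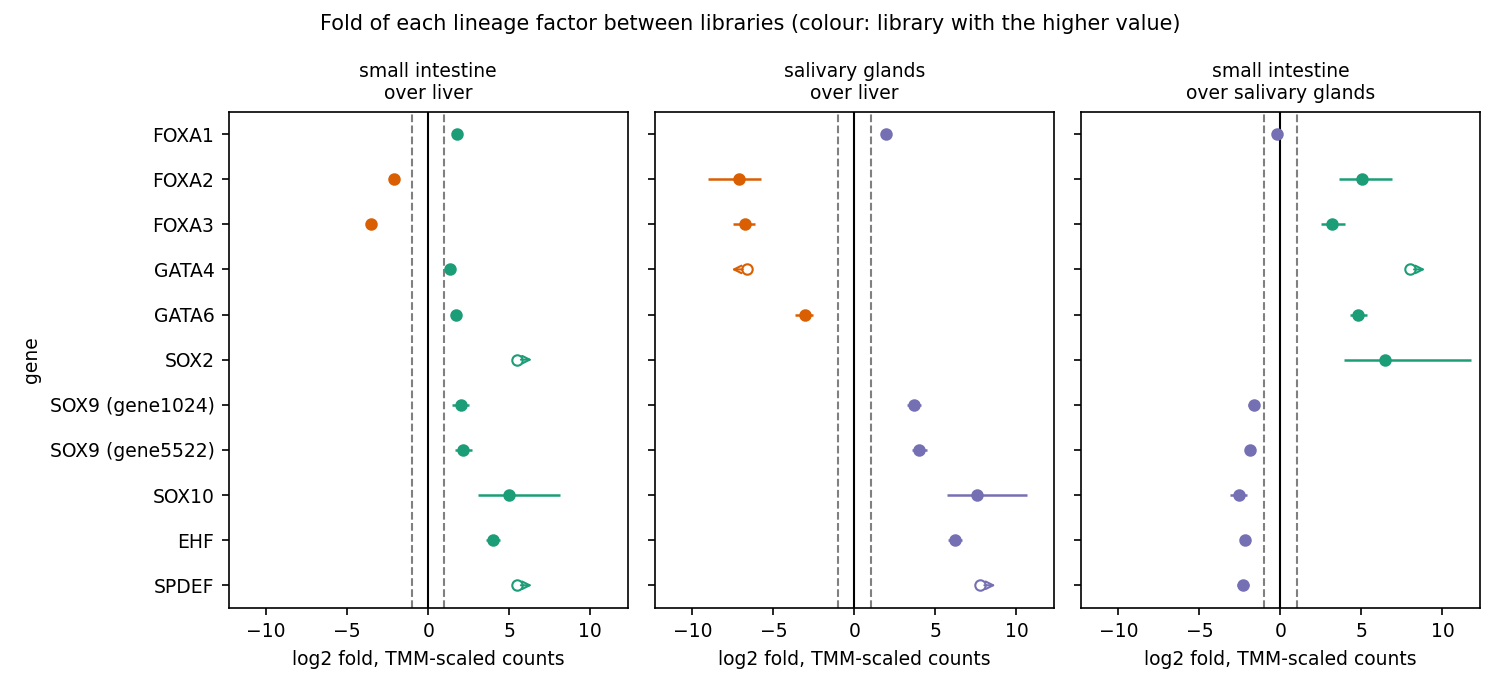
Log2 fold of TMM-scaled counts of each gene in the 3 comparisons, with exact 95% intervals, dashed lines at 2-fold either way, arrows for lower bounds and no point where both libraries had 3 counts or fewer. FOXA1 lies within 2-fold between the library labelled small intestine and the salivary glands, and every other point is outside the dashed lines.

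The FOXA genes differed in where they were high. FOXA1 (gene2541; scaffold NW_016528643.1, bases 6806 to 10848, minus strand, in a build that the files do not name) had an FPKM of 26.4 (24.0 to 29.1) in the library labelled small intestine, 28.5 (26.2 to 31.0) in the salivary glands and 6.80 (5.92 to 7.77) in the liver. It was therefore high in the former pair and lowest in the liver. Its scaled counts were 3.39-fold higher in the library labelled small intestine than in the liver (2.87 to 4.02) and 3.87-fold higher in the salivary glands than in the liver (3.30 to 4.55). Between the higher 2 libraries they differed 1.14-fold (1.002 to 1.30), the smallest difference of the 32 computed.

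FOXA2 (gene8091; scaffold NW_016532369.1, bases 35233 to 38599, plus strand) had an FPKM of 5.76 in the library labelled small intestine, 0.129 in the salivary glands, where the count was 4 and the deposited score gives 3, and 20.9 in the liver. The order of the libraries was thus liver, small intestine label, salivary glands, with no overlap of the counting intervals. FOXA2 was 4.32-fold higher in the liver than in the library labelled small intestine (3.55 to 5.30) and 140-fold higher than in the salivary glands (54.3 to 514). FOXA3 (gene4383; scaffold NW_016529708.1, bases 173625 to 180131, minus strand), a factor known for the upkeep of liver genes in adult liver, followed the same order with an FPKM of 8.67, 0.843 and 80.7. In the liver it was 11.8-fold higher than in the library labelled small intestine (10.1 to 13.99) and 108-fold higher than in the salivary glands (68.9 to 179). Its liver level stood above 96.5% of all genes of that library, the highest standing of any of the 11 genes in any of the 3 libraries.

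The make-up of the FOXA group therefore differed between libraries. FOXA3 held 74.5% of the summed FOXA FPKM of 108 in the liver, FOXA2 19.3% and FOXA1 6.28%. FOXA1 held 96.7% of the sum of 29.5 in the salivary glands and 64.7% of the sum of 40.9 in the library labelled small intestine. Within the liver the FPKM of FOXA3 was 11.9 times that of FOXA1 (10.3 to 13.7), and within the library labelled small intestine it was 0.328 times that of FOXA1 (0.271 to 0.395). By count per kb the same ratios were 13.3 (11.6 to 15.3) and 0.331 (0.274 to 0.399).

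**Figure D3:**
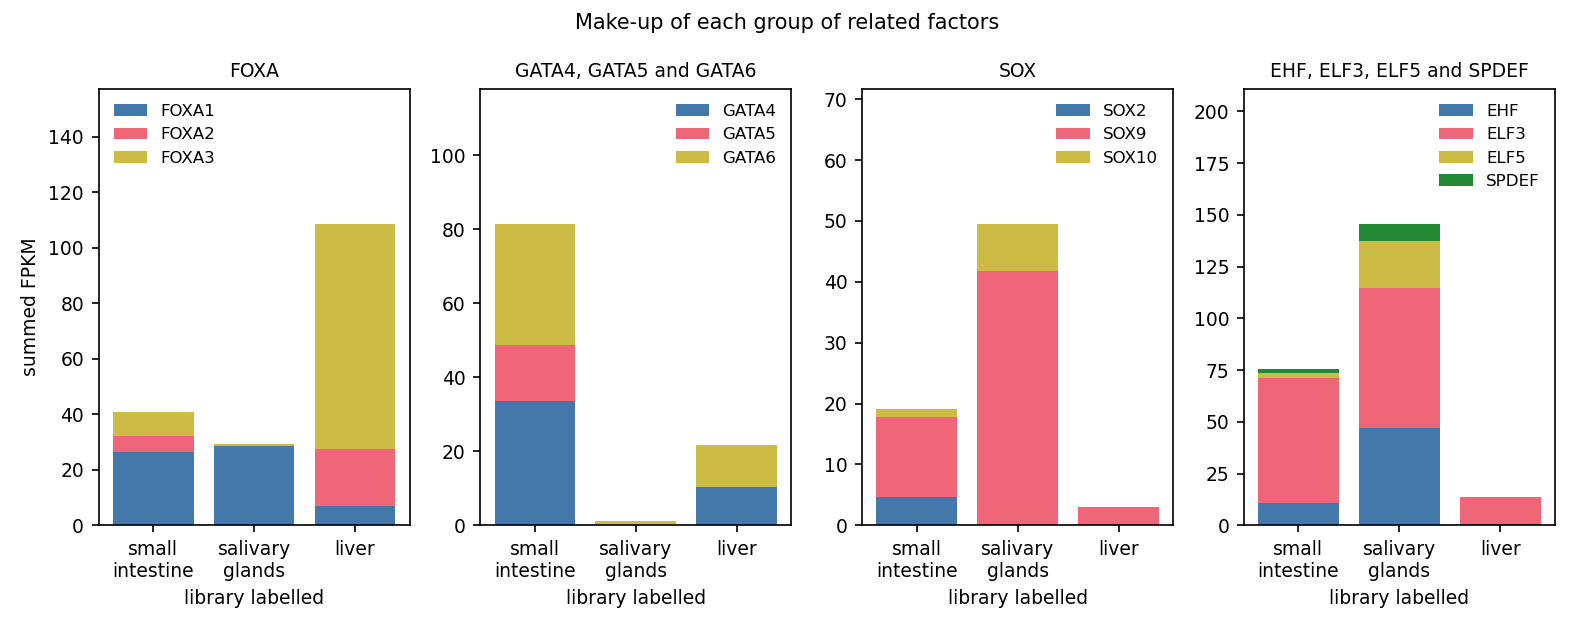
Summed FPKM of the related factors in each library, split by gene, with the 2 SOX9 genes added together. The FOXA bar is mostly FOXA3 in the liver and FOXA1 in the other libraries, GATA4, GATA5 and GATA6 are near absent in the salivary glands, and SOX9 and the epithelial ETS factors are highest there.

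Genes linked to FOXA factors in liver were at their highest in the same library. Of 12 such genes, 11 had an FPKM above 1 in the liver, with a median of 444, and 3 in each of the other libraries. All 12 were past the fold, higher in the liver, in both comparisons with it. Of all genes compared, 24.0% were higher in the liver than in the library labelled small intestine and 24.9% than in the salivary glands. The median log2 fold of the library labelled small intestine over the liver was -9.99 for the 12, against -0.08 over all genes compared. The most abundant were IGFBP1, with an FPKM of 19034, TAT with 4316 and PCK1 with 2584. The hepatocyte markers, all but CPS1 of which are in that list, summed to 109 in the library labelled small intestine and 121 in the salivary glands, led by ALB with 89.1 and SERPINA1 with 120. CPS1, TAT and G6PC were at 0 in the former and TTR and G6PC in the latter. The part of cell type in the levels of FOXA2 and FOXA3 was not tested, and in such bulk tissue fewer cells of a type and less RNA per cell cannot be told apart.

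Other regulators of liver followed FOXA2 and FOXA3 in part. Of 12 liver regulators, 11 had an FPKM above 1 in the liver, 7 in the library labelled small intestine and 3 in the salivary glands. Among them were CEBPB with 40.4, 73.6 and 151 and NR5A2 with 0.698, 0.425 and 43.7, in the order small intestine label, salivary glands, liver. Of the 12, 9 were at least 2-fold higher in the liver than in the library labelled small intestine and 1 was lower. The shares over all genes compared were 24.0% higher and 24.2% lower. The median log2 fold of the library labelled small intestine over the liver was -3.60 for the 12, against -0.08 over all genes compared.

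GATA4 (gene13732; scaffold NW_016537293.1, bases 163896 to 206714, plus strand), a factor of heart, stomach and proximal intestine, had an FPKM of 33.5 (31.0 to 36.1) in the library labelled small intestine, 0 in the salivary glands and 10.3 (9.39 to 11.3) in the liver. The counts behind these were 677, 0 and 447, so that the salivary gland library held no fragment of it. GATA4 was 2.56-fold higher in the library labelled small intestine than in the liver (2.27 to 2.90). It was at least 254-fold higher in the library labelled small intestine, and at least 99.0-fold higher in the liver, than in the salivary glands.

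GATA6 (gene23348; scaffold NW_016556990.1, bases 16264 to 51171, plus strand), which is needed for the early endoderm, had an FPKM of 32.6 (30.3 to 35.0), 1.21 (0.814 to 1.72) and 11.2 (10.1 to 12.4) in the same order. Its order of libraries was that of GATA4, but 30 fragments were counted in the salivary glands. It was 3.31-fold higher in the library labelled small intestine than in the liver (2.92 to 3.75), 27.7-fold higher than in the salivary glands (19.3 to 41.4), and 8.39-fold higher in the liver than in the salivary glands (5.78 to 12.6). How far GATA4 and GATA6 lay apart within a library depended on the scale, and in the liver so did their order. The FPKM of GATA4 was 1.03 times that of GATA6 in the library labelled small intestine (0.925 to 1.14) and 0.919 times in the liver (0.800 to 1.06). By count per kb GATA4 was 1.58 times GATA6 in the former (1.42 to 1.76) and 2.04 times in the latter (1.77 to 2.34).

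Of 5 other genes with GATA-type names, GATA5 was the highest, with an FPKM of 15.3 in the library labelled small intestine, a count of 0 in the salivary glands and a count of 1 in the liver. Thus GATA4 and GATA6 were both detected in the liver while GATA5, their closest relative, had 1 fragment there. TRPS1, GATA2 and GATA3 reached at most 2.36, 2.17 and 1.41 in any library. GATA4, GATA5 and GATA6 together summed to an FPKM of 81.4 in the library labelled small intestine, 1.21 in the salivary glands and 21.6 in the liver.

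Beside GATA4 and GATA6, 6 of 6 stomach genes linked to GATA factors were past the fold and higher in the library labelled small intestine, in both comparisons with it. Of all genes compared, 24.2% were higher there than in the liver and 20.6% than in the salivary glands. All 6 stomach genes are also among the gastric markers used above to check this label, so their count adds nothing to that check. Their summed FPKM was 12577 there, 9.68 in the salivary glands and 0 in the liver, where all 6 had a count of 0 although GATA4 and GATA6 were above an FPKM of 10. PGC, the gene of gastricsin, led with 9427, followed by TFF1 with 1148 and ATP4A with 1073. The wider markers of gastric chief and parietal cells summed to 148399, 120.4 and 0, with 5 of 7 above an FPKM of 1 in the library labelled small intestine, and those of pit and neck cells to 4928, 3.24 and 0.514, led by TFF2 with 3223. In the salivary glands the counts of the most abundant gastric markers were small beside those of the library labelled small intestine. They were 949 and 1005640 for PGA, 686 and 604927 for CHIA and 91 and 104330 for PGC. Whether these fragments came from salivary gland cells was not tested. The part of gastric cells in the levels of GATA4 and GATA6 was not tested either.

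SOX2 (gene21958; scaffold NW_016551664.1, bases 198079 to 200008, plus strand), known for the pluripotent state and for the foregut lining, was counted 78 times in the library labelled small intestine, 1 time in the salivary glands and 0 times in the liver. Its FPKM was 4.63 (3.66 to 5.78), 0.0508 (0.00129 to 0.283) and 0. The library labelled small intestine thus held 98.9% of its summed FPKM. The scaled counts were 87.7-fold higher there than in the salivary glands, with a counting interval of 15.3 to 3508 that reflects the single fragment, and at least 44.0-fold higher than in the liver. The homeobox gene CDX1, which in mammals marks the intestine, had a count of 0 in the same library, CDX2 was not found by name, and BARX1, a homeobox factor of the stomach wall, had an FPKM of 63.5 there, 0.246 in the salivary glands and 0 in the liver.

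SOX9, a factor of cartilage, ducts and progenitor cells, was annotated as gene1024 (scaffold NW_016527801.1, bases 4 to 2962, minus strand) and as gene5522 (scaffold NW_016530430.1, bases 315553 to 367114, minus strand). A RefSeq gene table of another assembly of the species, MJ_LKY, lists 1 gene named SOX9, and gene1024 begins at base 4 of its scaffold. The counts of gene1024 were 111, 395 and 47 and those of gene5522 were 119, 483 and 45, in the order small intestine label, salivary glands, liver. The FPKM was 7.82, 23.6 and 1.68 for the former and 5.33, 18.2 and 1.32 for the latter. Both genes were highest in the salivary glands and lowest in the liver. How fragments that fit both genes entered the deposited counts is not given in the sources used here.

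The count of gene1024 was 0.933 times that of gene5522 in the library labelled small intestine (0.714 to 1.22), 0.818 times in the salivary glands (0.714 to 0.936) and 1.04 times in the liver (0.679 to 1.61), and these intervals overlap. By FPKM, gene1024 was 1.47, 1.30 and 1.27 times gene5522, in the same order. By count per kb it was 1.88, 1.65 and 2.11 times gene5522. In the salivary glands gene1024 was 12.7-fold higher than in the liver (9.34 to 17.5) and gene5522 16.2-fold (11.9 to 22.5). Compared with the library labelled small intestine, the salivary glands were 3.17-fold higher for gene1024 (2.56 to 3.94) and 3.61-fold for gene5522 (2.95 to 4.45). The library labelled small intestine was in turn 3.998-fold above the liver for gene1024 (2.82 to 5.75) and 4.48-fold for gene5522 (3.15 to 6.46).

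Of 8 duct genes linked to SOX9, 6 were past the fold and higher in the salivary glands than in the liver and 2 were lower. The shares over all genes compared were 22.9% and 24.9%. The median log2 fold was 4.29 against -0.07 over all genes compared. Both SOX9 genes were higher in the library labelled small intestine than in the liver. Between these libraries 3 of the 8 duct genes were higher in the former and 2 were lower, as were 24.2% and 24.0% of all genes compared. Their median log2 fold was 0.15 against -0.08. KRT7, a keratin of simple epithelium, led with an FPKM of 12.7, 197 and 15.2, followed by EPCAM with 21.4, 104 and 12.4 and SPP1 with 9.71, 102 and 3.37. The markers of cholangiocytes and ducts, all 5 of which are in that list, summed to 52.5, 332 and 93.6. Their part in the level of SOX9 was not tested.

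SOX10 (gene4926; scaffold NW_016530068.1, bases 868657 to 878424, minus strand) had an FPKM of 1.31 (0.925 to 1.79) in the library labelled small intestine, 7.62 (6.72 to 8.62) in the salivary glands and 0.0560 (0.00678 to 0.202) in the liver, from 38, 257 and 2 counts. It was thus well counted in the salivary glands and near the limit of counting in the liver. SOX10 was 6.02-fold higher in the salivary glands than in the library labelled small intestine (4.27 to 8.70) and 193-fold higher than in the liver (53.0 to 1606). The library labelled small intestine stood 32.2-fold above the liver (8.31 to 275).

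Markers of Schwann cells and glia followed SOX10 in part. Of the 4 compared between the library labelled small intestine and the liver, 3 were at least 2-fold higher in the former, as SOX10 was, and 1 was lower. Between salivary glands and liver 1 of 2 was higher in the former and 0 were lower, while between the library labelled small intestine and the salivary glands, where SOX10 was lower in the former, 3 of 4 were higher there and 1 was lower. Over all genes compared, 24.2%, 22.9% and 20.6% were higher in the former in these 3 comparisons, and 24.0%, 24.9% and 16.9% were lower. Of the 5 glia markers found, 4 had an FPKM above 1 in the library labelled small intestine, 1 in the salivary glands and 1 in the liver, the latter being ERBB3 in both. They summed to 10.4, 16.4 and 13.8, of which ERBB3, a receptor that epithelia also use, made 7.13, 15.8 and 13.7. In the salivary glands, where SOX10 was highest, CDH19 and GFAP had an FPKM of 0.429 and 0.117. In the library labelled small intestine CDH19 stood at 1.07. Of 8 glia genes linked to SOX10, EDNRB was the highest, with 8.27, 7.36 and 35.1, followed by ERBB3 and by MBP with 12.05, 11.3 and 2.77.

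Markers of myoepithelial and basal cells, which in salivary glands can carry SOX10, summed to 1257 in the library labelled small intestine, 275 in the salivary glands and 10.6 in the liver. They include smooth muscle genes, and CNN1 led with 623 in the library labelled small intestine and ACTA2 with 111 in the salivary glands. The FPKM of the basal keratins was also higher in the library labelled small intestine than in the salivary glands. It was 88.2 and 55.0 for KRT5 and 77.1 and 34.9 for KRT14, but their scaled counts differed by less than 2-fold. TP63, with an FPKM of 1.78 and 0.624, was past the fold. KRT5 and KRT14 were at 0 in the liver. Of 6 such markers 6, 5 and 2 had an FPKM above 1, and their part in the levels of SOX10 was not tested.

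EHF (gene12513; scaffold NW_016536051.1, bases 89032 to 130487, plus strand), an ETS factor of glandular and surface epithelium, had an FPKM of 10.6 (9.65 to 11.5) in the library labelled small intestine, 46.8 (45.0 to 48.7) in the salivary glands and 0.763 (0.570 to 1.0004) in the liver. The salivary gland level stood above 95.2% of all genes of that library. EHF was 4.58-fold higher in the salivary glands than in the library labelled small intestine (4.16 to 5.06) and 73.4-fold higher than in the liver (55.8 to 98.6). The library labelled small intestine stood 16.0-fold above the liver (12.02 to 21.7).

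SPDEF (gene10505; scaffold NW_016534319.1, bases 225132 to 243977, plus strand) had an FPKM of 1.96 (1.55 to 2.44), 8.25 (7.49 to 9.06) and 0 in the same order, from 78, 434 and 0 counts. As with EHF, the salivary glands came first and the liver last. SPDEF was 4.95-fold higher in the salivary glands than in the library labelled small intestine (3.88 to 6.38), at least 218-fold higher than in the liver, and at least 44.0-fold higher in the library labelled small intestine than in the liver. The FPKM of EHF was 5.39 times that of SPDEF in the library labelled small intestine (4.24 to 6.94) and 5.68 times in the salivary glands (5.13 to 6.30), and by count per kb EHF was 4.62 times (3.63 to 5.94) and 4.28 times SPDEF (3.86 to 4.75).

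Of 26 other ETS genes, ELF3, the epithelial factor that carried the symbol EHF in Swiss-Prot, was the highest, with an FPKM of 60.5, 67.8 and 12.8. EHF therefore stood at 0.175 times the level of ELF3 in the library labelled small intestine (0.157 to 0.194) and at 0.691 times in the salivary glands (0.650 to 0.735). By count per kb these ratios were 0.174 (0.157 to 0.194) and 0.630 (0.593 to 0.671). ETS2 reached 20.7, 8.26 and 57.6, ETV6 8.36, 33.6 and 34.4, and ERF 32.4, 11.8 and 27.0. These latter 3 were above an FPKM of 1 in the liver, where SPDEF was at 0. A second gene named ERF (gene558) had a count of 0 in all 3 libraries.

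Of 11 epithelial genes linked to EHF, 9 of the 10 that passed the count minimum were at least 2-fold higher in the salivary glands than in the liver and 0 were lower, where 22.9% of all genes compared were higher, and the median log2 fold was 3.39 against -0.07. In the comparison with the library labelled small intestine, 6 of the 11 were higher in the salivary glands and 1 was lower. The shares over all genes compared were 16.9% and 20.6%. EPCAM, CLDN4 and ELF3 led, with CLDN4, a tight junction gene, at 10.1, 81.0 and 0.769. The salivary acinar and duct markers summed to 31.0 in the library labelled small intestine, 226 in the salivary glands and 92.3 in the liver, led by BHLHA15 in all 3 libraries. MUC19 was at 0 in all but the salivary glands, ELF5 was at 0 in the liver, and their part in the levels of EHF and SPDEF was not tested.

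Genes of mucus secretion linked to SPDEF were mixed in their order of libraries. Of 14 found, FOXA3 among them, 10 had an FPKM above 1 in the library labelled small intestine and 6 in each of the other libraries. Between the library labelled small intestine and the salivary glands, where SPDEF was lower in the former, 9 of the 13 compared were higher in the former and 3 in the latter, with a median log2 fold of 3.38 against -0.02 over all genes compared. The shares over all genes compared were 20.6% and 16.9%. TFF2 had an FPKM of 3223, 2.03 and 0.503, TFF1 of 1148, 0.357 and 0, and AGR2 of 573, 22.2 and 0.508. The 3 higher in the salivary glands, as SPDEF was, were CREB3L1 with 60.5, 337.6 and 4.43, CREB3L4 with 4.63, 28.7 and 1.12 and MUC19 with 0, 11.2 and 0. TFF1, TFF2, MUC5AC and MUC6 of this list are also among the 6 markers of gastric pit and neck cells, whose part in the median was not tested. Of the markers listed for goblet cells, MUC2, CLCA1, FCGBP, SPINK4 and ATOH1 were found and TFF3 was not. Those found were low throughout, summing to 3.11, 0.404 and 1.37, with MUC2 leading at 1.17 in the library labelled small intestine and ATOH1 at 0 in all 3.

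**Figure D4:**
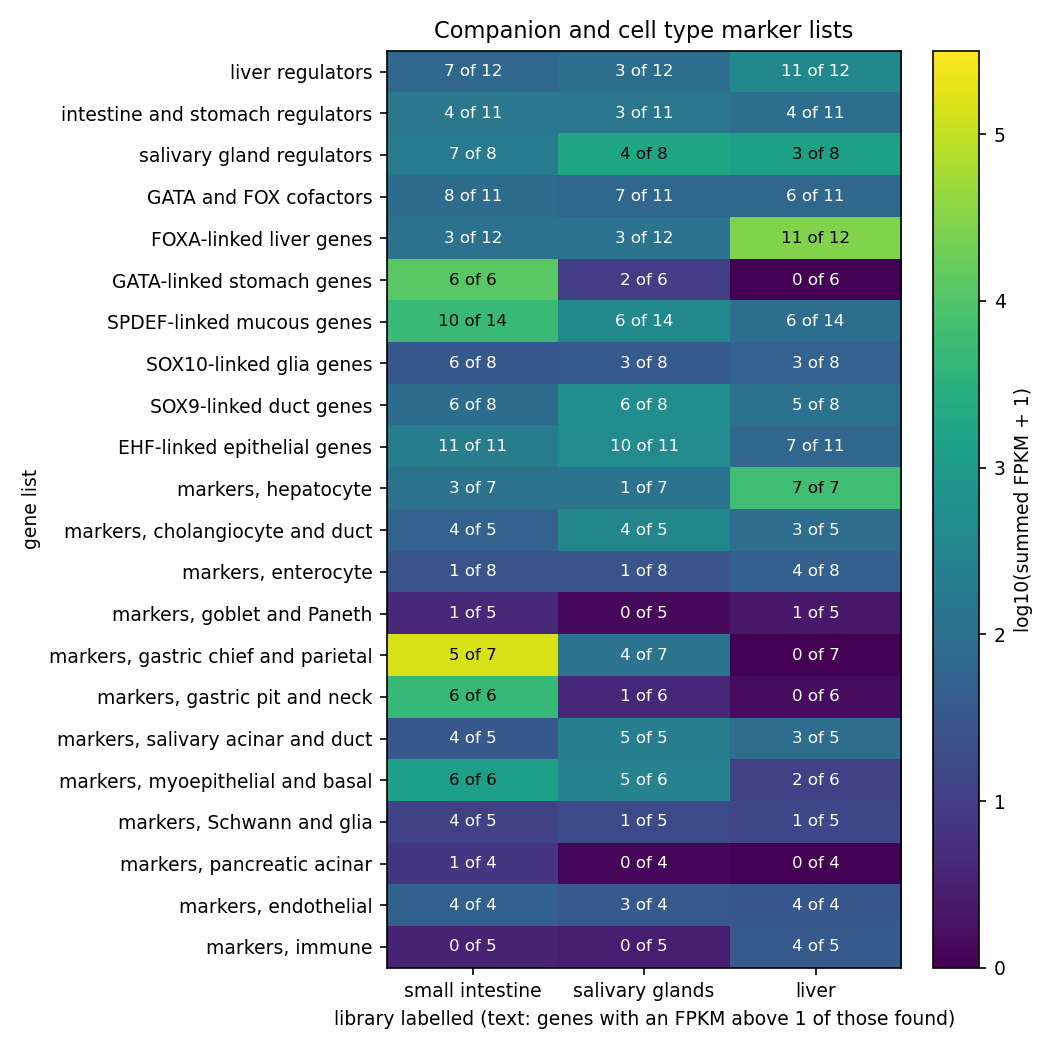
Companion gene lists and cell type marker lists in the 3 libraries, coloured by log10(summed FPKM + 1), with the number of genes above an FPKM of 1 among those found. The gastric lists stand out in the library labelled small intestine, at a summed FPKM of 148399 and 4928, and the hepatocyte list in the liver at 6616.

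In order of FPKM within the library labelled small intestine, GATA4 and GATA6 came first, followed by FOXA1, EHF, FOXA3, SOX9 (gene1024), FOXA2, SOX9 (gene5522), SOX2, SPDEF and SOX10. Counting intervals of neighbours overlapped there except between GATA6 and FOXA1, between FOXA1 and EHF and between SOX2 and SPDEF. In the salivary glands the order was EHF, FOXA1, SOX9 (gene1024), SOX9 (gene5522), SPDEF, SOX10, GATA6, FOXA3, FOXA2, SOX2 and GATA4. The intervals overlapped for SPDEF and SOX10, for GATA6 and FOXA3 and for FOXA2 and SOX2, and GATA4 was not detected. In the liver FOXA3 came first, then FOXA2, GATA6, GATA4, FOXA1, SOX9 (gene1024), SOX9 (gene5522), EHF and SOX10, with SOX2 and SPDEF not detected. There the intervals overlapped for GATA6 and GATA4, for both SOX9 genes, for SOX9 (gene5522) and EHF, and for no other neighbours among the detected genes. By count per kb GATA6 stood lower, below FOXA1 in the library labelled small intestine, below FOXA3 in the salivary glands and below GATA4 and FOXA1 in the liver, and the other factors kept their order.

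Of the 41 other FOX genes, FOXP4 was the highest, with an FPKM of 107, 71.8 and 26.6, above FOXA1 in all 3 libraries. FOXF1, a factor of gut mesenchyme, had 52.7, 1.499 and 2.42 and so shared its highest library with GATA4 and GATA6. FOXO1 (gene20342) stood at 16.6, 17.2 and 47.0 and FOXO3 at 39.9, 39.6 and 20.7. A second gene named FOXO1 (gene9273) had 8.24, 3.61 and 9.52, and FOXN3, FOXP1, FOXJ3 and FOXL1 were also annotated at more than 1 gene. Of the 14 other SOX genes, none reached the salivary gland level of either SOX9 gene. The highest were SOX13 with 11.6, 17.1 and 3.54, SOX17 with 16.8, 4.30 and 1.997, SOX12 with 8.54, 2.28 and 0.261, and SOX15 with 5.47, 2.86 and 0.211.

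Likeness of pattern was measured as the Euclidean distance over log2(FPKM + 1) in the 3 libraries, among the genes of the lists and the other family genes. FOXA2 was nearest to HNF4A, at a distance of 1.28, and 50 of 18036 genes were at least as near. FOXA1 was nearest to KLF4 (1.09, 281 genes) and ESRP1 (1.30). GATA4 and GATA6 were both nearest to HES1, at 2.14 and 1.32, and to GALNT12, at 2.20 and 1.81. HES1 had an FPKM of 2.31 in the salivary glands, above both. SOX2 was nearest to CTRB1, at 0.19, and FGF10, at 0.37. Both SOX9 genes had OVOL2 and CREB3L4 as their nearest, at 0.66 to 0.78. EHF was nearest to CLDN4, at 0.78 with 6 genes at least as near, and to OVOL2 at 1.18. SOX10 and SPDEF had ETV1 and FOXC1 in common, at 0.81 and 0.82 from SOX10 and at 1.16 and 1.11 from SPDEF. With 3 libraries many genes share a pattern, and nothing about shared control follows from these distances.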

How the data were processed

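RNA of 3 tissues of 1 adult female M. javanica was sequenced as 1 library each. The authors removed adaptors and poor reads, aligned the rest with TopHat2 without strand and joined new genes with Cufflinks. The deposited counts are whole fragments per gene, not scaled between libraries, and the tool that made them is not given in the sources used here. The study names RSEM for the FPKM behind its comparison of tissues. For the deposited FPKM the authors state a formula from fragments, transcript length and mapped fragments, which the deposited counts and lengths do not return. For most genes with a count, the deposited score is the count times 1 factor per library. The count equals the score over that factor, within 0.05, for 64.8%, 63.7% and 63.2% of genes with a count in the library labelled small intestine, salivary glands and liver, and is 1 above it for 28.7%, 29.4% and 29.2%. The genome build behind the scaffold positions is not given in the sources used here.

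Computed here were TMM factors over the 3 libraries (edgeR 4.0.16 in R 4.3.3), folds, exact intervals and distances (Python 3.11.15, numpy 2.4.6, pandas 2.3.3, scipy 1.17.1, matplotlib 3.10.9), and DESeq2 1.42.0 size factors as an alternative. A fold of at least 2 was counted among genes with at least 10 counts in 1 of 2 libraries, and a count of 0 was set to 3. The fold and interval code was tested on simulated data. With 1 library per tissue there was no test between groups.

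The genes named are the 10 symbols, the 4 other genes of each family and the 3 genes of each list with the highest FPKM in any library, listed tissue genes at 0 in all libraries, and the 2 nearest genes to each factor among the lists and families. Not every gene that these rules give is named. Names come from NR products, a choice made after values by Swiss-Prot symbol were seen, and of several genes with a listed name the one with the highest FPKM was used. CDX1, CPS1, G6PC, TTR, ALB, VIL1, KRT5, KRT14, TP63, GFAP, MUC19 and ELF5 were named as leading markers or markers at 0, and CREB3L1, MUC5AC and MUC6 beside SPDEF, after their values were seen. The factors and lists were chosen with earlier results of these data known. Sequences were not analysed here.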

Additional observations from a re-analysis of the deposited data

How the results depend on the processing

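Library size only, DESeq2 size factors, upper quartile factors and, chosen after seeing the data, the deposited score were tried in place of TMM. Under these, 0 of the 32 folds of the lineage factors changed direction and 0 crossed 2-fold. With library size only, 10 of the 32 moved outside their interval of counting error, and under each other scaling 0 did. Among the 10 was FOXA1 for the library labelled small intestine over the salivary glands, at a log2 fold of -0.65 in place of -0.19. Library size only moved the median of all genes by -0.24, 0.22 and -0.46 (log2) for the library labelled small intestine over liver, salivary glands over liver and the library labelled small intestine over salivary glands. In the last of these comparisons the share of calls higher in the library labelled small intestine fell to 35.7% from 54.9%. Of 51 recomputed counts, 46 stayed within 1.5 times. With a fold of at least 4, the genes past the fold numbered 4655, 4365 and 2983 in place of 8402, 8213 and 6203, in the same order, and the lineage factors between the library labelled small intestine and the liver 7 in place of 11, since fewer genes reach a higher fold. With at least 50 counts, 3889 genes were past the fold between the library labelled small intestine and the salivary glands, since fewer were compared. Ranked among annotated genes with at least 10 counts, all 30 standings above 0 fell, by 2.17 to 32.8 percentage points. Count per kb, scaled to the library total, in place of FPKM, also chosen after seeing the data, left 11, 7 and 7 factors above 1, with FOXA3 for GATA6 in the salivary glands. FOXA2, GATA4, SOX2, SOX10 and SPDEF had 4 counts or fewer in at least 1 library. No paired analysis was possible because each tissue has 1 library.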

Other observations

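Several other forkhead genes, named after their values were seen, were counted wholly or mostly in 1 library. FOXF2 had 547 counts in the library labelled small intestine and 0 in the salivary glands and the liver. FOXI1 and FOXI2 had 147 and 50 counts in the salivary glands and 0 in both other libraries. FOXC1 had an FPKM of 0.486, 10.3 and 0.325 and FOXC2 of 0.242, 3.12 and 0.0334, in the order small intestine label, salivary glands, liver.

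Among 11 cofactors of GATA and FOX proteins, TLE1 led in all 3 libraries with an FPKM of 31.1, 15.01 and 28.6, and TLE3 was next with 18.3, 13.7 and 13.6. TLE2 had 5.21, 11.9 and 5.34. NKX2-1 was at 0 in all 3 libraries. Of the salivary gland regulators, XBP1, a factor of secretory cells, had an FPKM of 159, 1640 and 1258, BHLHA15 of 24.5, 95.9 and 64.8, and ELF5 of 2.44, 22.5 and 0. Of the regulators of intestine and stomach, KLF4 had 46.2, 48.3 and 7.56, while ISX, ATOH1 and NEUROG3 were at 0 in all 3 libraries, as was PTF1A among the pancreatic acinar markers.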
